A study of Homo sapiens with 4 samples.

Results

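Extracellular matrix and matricellular genes were described in U87MG and U251, a pair of human glioblastoma cell lines, with and without knockdown of the splicing factor SRSF1. The members were 48 genes taken by symbol from a given list, of 40205 rows in the deposited expression table, and all 48 were found. They were read in 6 classes, namely fibrillar and associated collagens, basement membrane, elastic fibre and fibronectin, proteoglycans, matricellular proteins, and crosslinking and collagen processing. The U87MG control and the U251 control carried a lentiviral non-targeting short hairpin (sh-NC, titled WT), and the U87MG knockdown and the U251 knockdown carried a hairpin against SRSF1 (sh-SRSF1, titled KD). Virus was used at a multiplicity of infection of 20 and puromycin selection lasted 1 week in every arm, so the control cells were infected and selected too and were not untreated. Cells of both lines grew in DMEM with fetal bovine serum, penicillin and streptomycin. There was 1 poly(A) library per line and arm from stably selected cells. The labels name 1 hairpin per arm, and they do not say how many infections a library stands for.

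The extracellular matrix is the secreted scaffold that surrounds cells. Fibrillar collagens form its cables, collagen IV, laminins and nidogens form the sheet-like basement membrane, fibrillins form the microfibrils of elastic tissue, and lysyl hydroxylases and lysyl oxidases modify and crosslink the collagens. Proteoglycans carry glycosaminoglycan chains, and matricellular proteins such as osteopontin, thrombospondins and tenascin-C act on cell behaviour more than on structure. Normal brain tissue holds little fibrillar collagen and is rich in versican-type proteoglycans and tenascins, whereas basement membranes there line the vessels, and glioblastoma cells are known to make many matrix proteins themselves.

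Levels are RPKM, reads scaled to the length of the gene model and the size of the library, so that they can be compared between genes per length. The library sizes behind this scaling, worked back from the RPKM values, were 25099799 to 27953878 reads. In the order U87MG control, U87MG knockdown, U251 control and U251 knockdown, used for every set of 4 levels below, SRSF1 itself stood at 88.3, 14.6, 109 and 15.8 RPKM, so both libraries labelled KD were low for the targeted gene. The limma estimate for SRSF1, knockdown minus control, was -2.62 ± 0.16 (SE) on the log2(RPKM + 1) scale, with an adjusted p of 0.0022. Of the astroglial markers, GFAP reached at most 1.47 RPKM, AQP4 was at 0 in all 4 libraries and S100B, SLC1A2 and ALDH1L1 stayed near 0, while VIM was at 1065 to 1675 RPKM. SOX2 was at 0.121, 0.0460, 47.9 and 49.3 RPKM, and NES at 1.79, 1.29, 61.1 and 83.7 RPKM, so these neural progenitor markers were near 0 or low in U87MG. SLC1A3, an astroglial glutamate transporter, was at 13.4, 12.8, 13.5 and 34.2 RPKM, and OLIG2, at 0.936, 2.46, 0.0146 and 0.0263 RPKM, was higher in U87MG (limma estimate 1.34, adjusted p 0.0049). Of the 10 astroglial markers 6 reached an RPKM of 1. The summed levels of the 10 were 1691, 1174, 1465 and 1233 RPKM, of which VIM alone held 1675, 1158, 1341 and 1065. SOX2 and NES move with the line as many matrix genes do, and their part in those differences was not tested. No leukocyte or epithelial marker of 5 each reached an RPKM of 1, and of the 5 endothelial markers only KDR did. Of the 5 neuronal markers, SYT1 was at 3.21 to 6.76 RPKM and SNAP25 at 1.22 to 1.92, and the other 3 stayed below 1. In bulk RNA of this kind, fewer cells with a transcript and less transcript per cell cannot be told apart.

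The following promoter regions are shown because the genes they belong to carry the 3 largest limma estimates between the lines on the log2(RPKM + 1) scale, among the 48. COL4A1 and COL4A2, the main collagen IV chains, lie head to head on chromosome 13 and are read in opposite directions from start sites 127 bases apart in the RefSeq annotation of GRCh38.p14. The window shown runs from 250 bases before the COL4A2 start, at chr13:110307034-110307333 on the forward strand, has a GC content of 77.7%, and overlaps the equivalent COL4A1 window by 226 bases. Capitals mark the 126 bases between the start sites.
COL4A1 and COL4A2 shared promoter: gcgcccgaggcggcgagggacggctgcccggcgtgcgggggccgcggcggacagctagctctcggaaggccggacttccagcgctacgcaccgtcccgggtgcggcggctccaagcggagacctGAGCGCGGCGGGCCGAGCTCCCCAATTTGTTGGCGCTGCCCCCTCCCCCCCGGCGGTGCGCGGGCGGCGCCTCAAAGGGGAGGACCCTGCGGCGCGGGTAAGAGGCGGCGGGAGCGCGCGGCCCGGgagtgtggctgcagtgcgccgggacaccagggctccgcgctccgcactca
The THBS1 window is chr15:39580829-39581128 on the forward strand of the same build, with a GC content of 70%, and capitals mark GGAATG, the core of the motif bound by TEAD factors, which begins 46 bases before the start site.
THBS1 promoter: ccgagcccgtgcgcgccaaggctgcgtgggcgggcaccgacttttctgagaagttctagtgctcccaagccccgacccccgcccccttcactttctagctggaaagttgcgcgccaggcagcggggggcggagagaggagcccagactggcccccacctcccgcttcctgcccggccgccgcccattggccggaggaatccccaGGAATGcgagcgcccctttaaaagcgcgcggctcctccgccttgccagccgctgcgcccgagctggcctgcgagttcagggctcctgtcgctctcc
RefSeq windows of 300 bases were at hand for 38 of the 48 members. GGAATG, searched on both strands, was found in 5 of the 38 (COL12A1, FBN1, SPARC, THBS1 and THBS2) and in 14% of all 35116 windows. GGGCGG, the Sp1 core, was found in 29 of the 38 against 45% of all windows, CCAAT in 13 against 34.6%, TATAAA in 4 against 11.5%, TGACTCA (AP-1) in 2 against 4.95%, and AACCACA (RUNX) in 2 against 4.27%. The THBS1 window also held GGGCGG and CCAAT, which are not marked. None of the 6 motifs contains another on either strand, and a match is a description of the sequence only.

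A gene was compared where any library held it at an RPKM of 1 or more, which left 16098 genes in all and 41 of the 48. The 7 others were COL3A1, HSPG2 (perlecan), FBLN5, EMILIN1, DCN (decorin), LUM (lumican) and POSTN (periostin), at 0.0106 to 0.630 RPKM on 1 to 233 reads. Among them are the type III collagen chain and the small leucine-rich proteoglycans DCN and LUM, which are typical of connective tissue. Of the 41, 31 passed in both lines, 8 only in U251 (COL8A1, COL4A1, COL4A2, NID1, FBLN1, BGN, THBS1 and THBS2) and 2 only in U87MG (NID2 and MFAP2). Those 10 passed through the line in which they are high, so for them passing already asked for a difference, and counts over the 41 are a description.

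**Figure D1:**
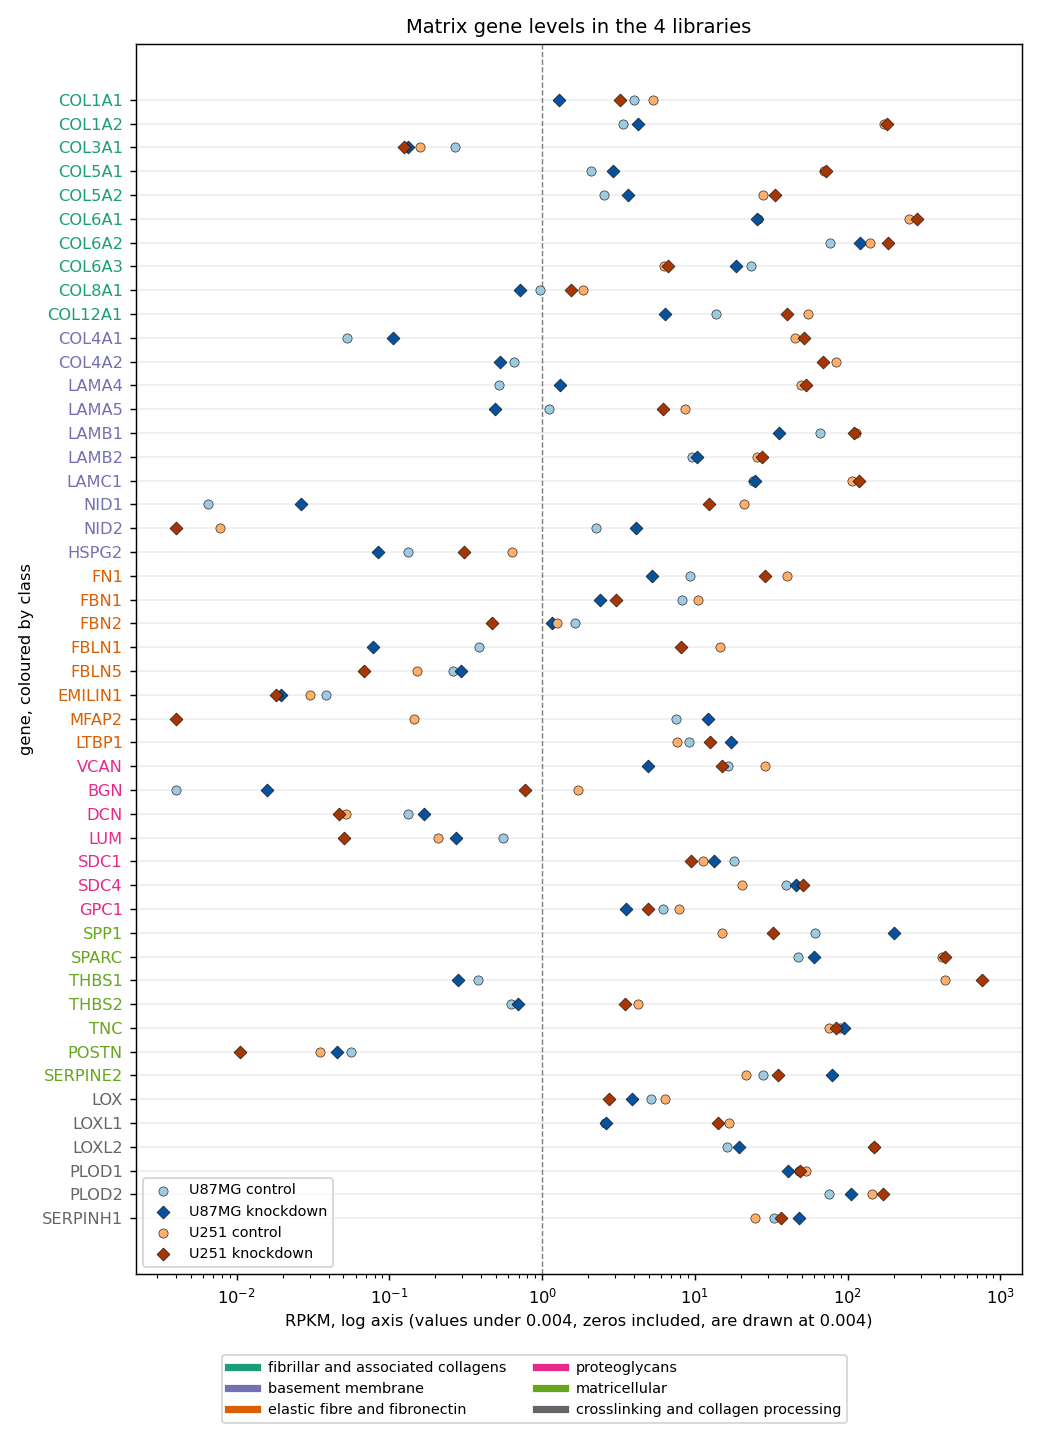
RPKM of each of the 48 genes on a log axis, with circles for control and diamonds for knockdown libraries, blue for U87MG and orange for U251, and the dashed line at an RPKM of 1. For most collagens and basement membrane genes the blue and orange symbols lie apart, as for THBS1 with 0.381 and 0.279 RPKM in U87MG and 432 and 758 in U251, whereas TNC lies between 75.5 and 94.7 in all 4 libraries.

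The matrix programme of the control cells differed strongly between the lines. Summed over the 48 genes, levels were 779.6, 1025, 2685 and 3157 RPKM. TNC (tenascin-C) was the most abundant member of the U87MG control at 88.7 RPKM, followed by COL6A2, PLOD2, LAMB1 and SPP1. THBS1 (thrombospondin-1) led in the U251 control at 432 RPKM, followed by SPARC, COL6A1, COL1A2 and LOXL2, and made up 16.1% of the summed level there against 0.0489% in the U87MG control. Between the control libraries, 4 members were at least 2-fold higher in U87MG (background 9.48% of all genes tested) and 20 at least 2-fold lower (background 12.1%), with no test possible on 1 library each. The median difference of all 48, U87MG minus U251 control, was -0.65 on the log2(RPKM + 1) scale, against -0.02 over all genes tested.

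With the arms as a second term, limma compared the 2 libraries of each line. It called 6 members higher in U87MG (background 21.6%) and 25 lower (background 27%). Among the 31 that passed in both lines, 4 were called higher in U87MG and 18 lower. The backgrounds given are over all genes tested, and none was computed for genes that passed in both lines. The levels of the lines overlapped for COL1A1, FBN1, FBN2, LTBP1, VCAN, SDC4, GPC1, SERPINE2, LOX and SERPINH1. How many of all genes overlap in this way was not counted, so this list is a description. The line estimate rests on 1 residual degree of freedom per gene and on a spread shared across genes, and it includes knockdown libraries.

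**Figure D2:**
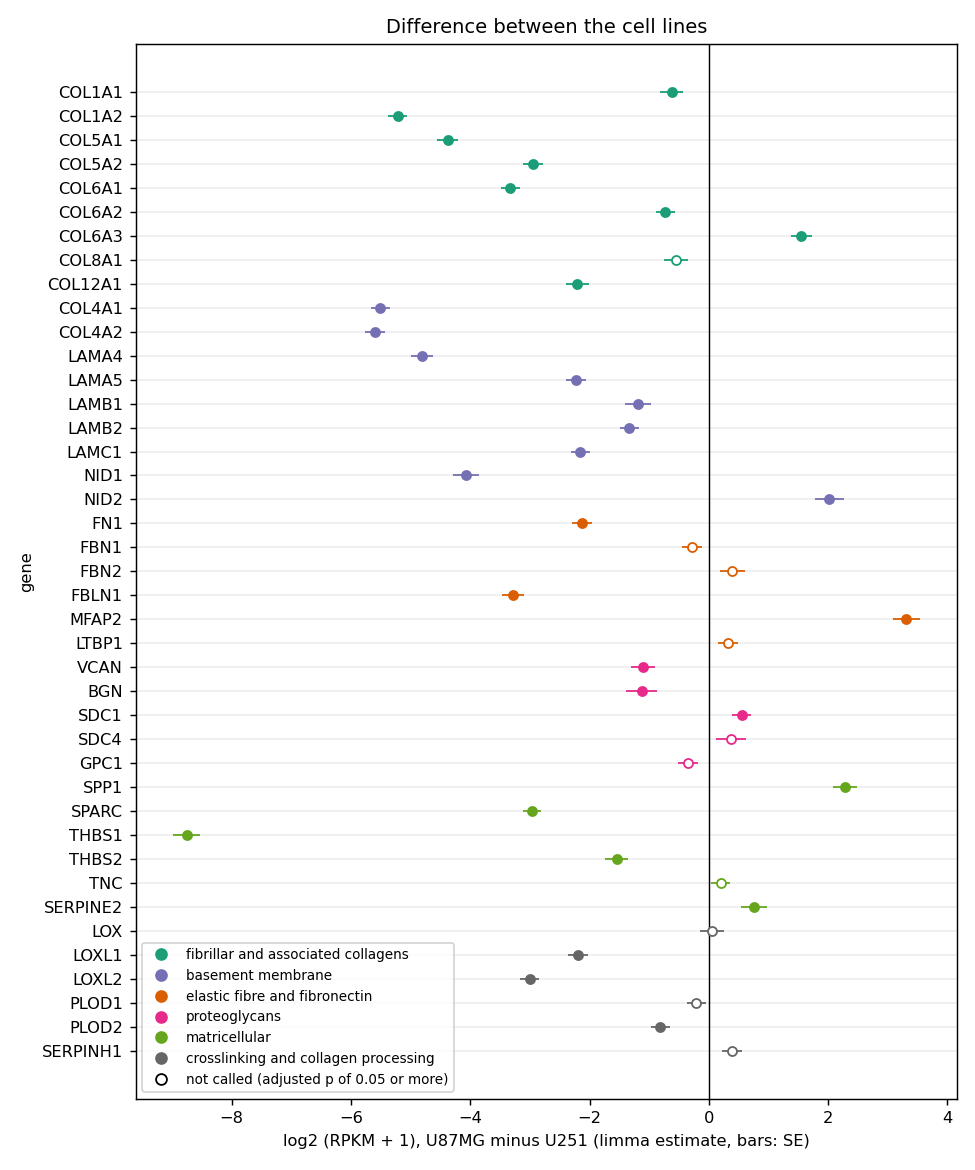
limma estimate of the difference between the lines (U87MG minus U251, log2 of RPKM + 1) for the 41 genes tested, with SE bars, coloured by class and filled where called at an adjusted p under 0.05. Points left of 0 are lower in U87MG; THBS1 lies farthest left at -8.75, and MFAP2 farthest right at 3.31.

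Fibrillar and associated collagens were lower in U87MG for 7 of the 9 that passed, and COL6A3 was the exception that was higher. These calls all fell among the 8 that passed in both lines. Over all genes tested, 27% were called lower and 21.6% higher. COL1A2, a chain of type I collagen, stood at 3.37, 4.27, 174 and 182 RPKM, a U251 control level 51.6 times that of the U87MG control (95% counting interval 47.2 to 56.6). Its partner chain COL1A1 stood at 3.97, 1.28, 5.34 and 3.23 RPKM, so that the lines overlapped for one chain and were far apart for the other. The limma estimates, U87MG minus U251, were -5.22 ± 0.17 for COL1A2 and -0.62 ± 0.20 for COL1A1. Type V collagen controls fibril diameter, and its chains COL5A1 (2.07, 2.91, 70.2 and 72.1 RPKM; estimate -4.38 ± 0.17) and COL5A2 (2.54, 3.67, 27.7 and 33.2 RPKM; -2.95 ± 0.16) were both higher in each U251 library.
Type VI collagen forms beaded filaments from 3 chains, and these did not all differ in the same direction. COL6A1 stood at 26.1, 25.5, 251 and 286 RPKM (estimate -3.33 ± 0.16), and COL6A2 at 76.2, 121, 140 and 182 RPKM (-0.73 ± 0.16). COL6A3 stood at 23.3, 18.7, 6.27 and 6.70 RPKM and was higher in U87MG (1.55 ± 0.18). COL12A1, a collagen that coats fibrils, stood at 13.8, 6.38, 55.2 and 40.3 RPKM (-2.21 ± 0.19), below U251 in both U87MG libraries. Adjusted p ranged from 8.5e-07 for COL1A2 to 0.031 for COL1A1 among these 8. COL8A1, a short-chain collagen, was at 0.968, 0.711, 1.85 and 1.55 RPKM and was not called (-0.55 ± 0.20, adjusted p 0.051 by limma). COL1A1 was not called after quantile normalization (0.053), and neither it nor COL6A2 was called without the filter on low values (0.16 and 0.057) or without the arm term (0.32 and 0.12).

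Basement membrane genes were lower in U87MG for 8 of 9, and NID2 was the exception. COL4A1, COL4A2 and NID1 passed only in U251 and NID2 only in U87MG, so for them passing already asked for a difference. The 5 that passed in both lines were all called lower, beside 27% of all genes tested. The collagen IV pair with the shared promoter shown above was nearly absent from U87MG: COL4A1 stood at 0.0524, 0.106, 45.0 and 51.4 RPKM (9, 18, 7381 and 9389 reads), and COL4A2 at 0.650, 0.529, 83.8 and 68.6 RPKM. The limma estimates were -5.51 ± 0.16 and -5.60 ± 0.16, both with an adjusted p of 7.1e-07. On reads, the U251 control level of COL4A1 was 859 times that of the U87MG control (counting interval 452 to 1880), and that of COL4A2 was 129 times (107 to 158).
Laminins are trimers of an alpha, a beta and a gamma chain. The alpha chain LAMA4 stood at 0.521, 1.30, 49.6 and 53.3 RPKM (-4.81 ± 0.18) and LAMA5 at 1.10, 0.492, 8.55 and 6.17 RPKM (-2.22 ± 0.17), so U87MG held little of either. The beta and gamma chains were expressed in both lines, with smaller differences: LAMB1 stood at 66, 35.4, 113 and 110 RPKM (-1.19 ± 0.22), LAMB2 at 9.57, 10.3, 25.6 and 27.6 RPKM (-1.34 ± 0.16) and LAMC1 at 24.0, 24.8, 107 and 118 RPKM (-2.16 ± 0.16). Nidogens link laminin to collagen IV, and a different one prevailed in each line. NID1 was at 0.00646, 0.0262, 21.0 and 12.4 RPKM on 1, 4, 3093 and 2041 reads (-4.08 ± 0.22), and NID2 at 2.24, 4.12, 0.00777 and 0 RPKM on 302, 549, 1 and 0 reads (2.02 ± 0.24). The U251 control level of NID1 was 3241 times that of the U87MG control with an interval of 581 to 1.28e+05, and the U87MG control level of NID2 was 288 times that of U251 with an interval of 51.3 to 11420. Adjusted p of the 9 ranged from 7.1e-07 to 0.0033, and without the filter on low values LAMB1 was not called (0.069).

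The elastic fibre and fibronectin class split, with 2 of 6 lower in U87MG, 1 higher and 3 not called. Among the 4 that passed in both lines, 1 was called lower and 0 higher, beside 27% and 21.6% of all genes tested. FN1 (fibronectin), the main adhesive glycoprotein of the provisional matrix, stood at 9.30, 5.25, 40.3 and 28.8 RPKM (-2.13 ± 0.17, adjusted p 5.1e-05). FBLN1 (fibulin-1), which binds fibronectin and basement membrane proteins, stood at 0.387, 0.0784, 14.6 and 8.15 RPKM (-3.29 ± 0.19, adjusted p 1e-05). MFAP2, a small microfibril glycoprotein, stood at 7.52, 12.2, 0.145 and 0 RPKM on 218, 350, 4 and 0 reads (3.31 ± 0.23, adjusted p 2.7e-05). The other 3 were not called. FBN1 (fibrillin-1) stood at 8.20, 2.38, 10.4 and 3.03 RPKM, and FBN2 at 1.63, 1.17, 1.25 and 0.467 RPKM. LTBP1, which anchors latent TGF-beta to microfibrils, stood at 9.16, 17.2, 7.63 and 12.6 RPKM. Within each arm, FBN1 was lower in U87MG and FBN2 and LTBP1 were higher, with no test within an arm. MFAP2 was thus nearly absent from U251, while FBN1, FBN2 and LTBP1 overlapped between the lines.

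Among proteoglycans, 2 of 5 were lower in U87MG and 1 was higher. For the 4 that passed in both lines the calls were 1 lower and 1 higher, beside 27% and 21.6% of all genes tested. VCAN (versican), the large chondroitin sulfate proteoglycan of brain matrix, stood at 16.5, 4.96, 28.7 and 15.1 RPKM (-1.10 ± 0.20, adjusted p 0.0034), although the U251 knockdown lay below the U87MG control. BGN (biglycan) stood at 0, 0.0158, 1.71 and 0.776 RPKM on 0, 1, 105 and 53 reads (-1.12 ± 0.26, adjusted p 0.009). The transmembrane proteoglycan SDC1 (syndecan-1) stood at 18.1, 13.2, 11.2 and 9.41 RPKM (0.55 ± 0.17, adjusted p 0.027). SDC4 (syndecan-4, a fibronectin co-receptor), at 39.5, 45.7, 20.5 and 51.3 RPKM, and GPC1 (glypican-1), at 6.16, 3.54, 7.90 and 4.93 RPKM, overlapped between the lines and were not called. Without the filter on low values VCAN, BGN and SDC1 were not called (adjusted p 0.062, 0.053 and 0.077), and VCAN and SDC1 were not called without the arm term (0.21 and 0.14).

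Of the 6 matricellular genes that passed, 3 were lower in U87MG, 2 were higher and TNC was not called. With only the 4 that passed in both lines, 1 was called lower and 2 higher, beside 27% and 21.6% of all genes tested. THBS1, an inhibitor of angiogenesis and activator of latent TGF-beta, stood at 0.381, 0.279, 432 and 758 RPKM on 29, 21, 31427 and 61383 reads, and its estimate of -8.75 ± 0.23 (adjusted p 6.2e-07) was the largest in size of the 41. The U251 control level of THBS1 was 1135 times the U87MG control level (counting interval 790 to 1696). Its reads are the smallest whole numbers that match the levels, on a gene model of 2895 bases. Its longest GENCODE 29 transcript has 7775 bases, so the true reads may be a multiple, with a narrower interval. THBS2 stood far lower, at 0.628, 0.689, 4.23 and 3.47 RPKM (-1.54 ± 0.19). SPARC (osteonectin), which binds collagen, stood at 47.3, 59.8, 412 and 432 RPKM (-2.97 ± 0.16), so it was abundant in both lines and higher in U251. SPP1 (osteopontin), a secreted ligand of integrins and CD44, went the other way at 61.3, 202, 15 and 32.5 RPKM (2.28 ± 0.20, adjusted p 7.9e-05). SERPINE2 (protease nexin-1), a secreted inhibitor of thrombin and plasminogen activators, stood at 27.9, 79.5, 21.7 and 34.9 RPKM (0.76 ± 0.22, adjusted p 0.023), with the U251 knockdown above the U87MG control. TNC was at 88.7, 94.7, 75.5 and 84.2 RPKM and was not called (0.20 ± 0.16). Without the arm term, the calls of SPP1 and SERPINE2 between the lines were lost (adjusted p 0.054 and 0.33), and without the filter that of SERPINE2 was lost (0.14).

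Of the 6 crosslinking and collagen processing genes, 3 were lower in U87MG (background 27%) and the other 3 were not called. LOXL2, a secreted lysyl oxidase, stood at 16.1, 19.4, 149 and 149 RPKM (-3.01 ± 0.17), and LOXL1 at 2.58, 2.63, 16.7 and 14.2 RPKM (-2.19 ± 0.17). The founding member LOX did not separate the lines, at 5.15, 3.86, 6.36 and 2.76 RPKM. PLOD2, the lysyl hydroxylase of collagen telopeptides, stood at 75.0, 105, 144 and 171 RPKM (-0.81 ± 0.16, adjusted p 0.0043, or 0.056 without the arm term). PLOD1, at 47.6, 40.5, 53.3 and 48.9 RPKM, and the collagen chaperone SERPINH1 (HSP47), at 32.7, 48.2, 24.9 and 36.5 RPKM, were not called. PLOD1, PLOD2 and SERPINH1, which act on collagen in the endoplasmic reticulum, thus stood at 32.7 to 105 RPKM in U87MG, above every collagen chain of the 48 there except COL6A2.

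Far fewer matrix genes were called between the arms than between the lines, as was so over all genes tested. There, 3482 were called higher and 4347 lower in U87MG, against 186 higher and 420 lower in the knockdown. Of the 41 genes, limma with the cell line as a block called 2 higher in the knockdown, SPP1 and SERPINE2 (background 1.16%), and 2 lower, FBN1 and VCAN (background 2.61%). In GENCODE 29 on GRCh38 the called genes lie at chr4:87975650-87983426 (SPP1, forward strand), chr2:223975112-224039319 (SERPINE2, reverse), chr15:48408306-48645849 (FBN1, reverse) and chr5:83471465-83582303 (VCAN, forward). Before adjustment, at p under 0.05, there were 7 higher (background 8.29%) and 9 lower (background 12.8%). The split of calls over all genes depends on the scaling, since 30.7% of them were higher with RPKM as deposited, 44.2% after trimmed-mean rescaling and 37.5% after quantile normalization. Within U87MG, 2 members were at least 2-fold higher (SPP1 and SERPINE2; background 2.33%) and 4 at least 2-fold lower (COL1A1, COL12A1, FBN1 and VCAN; background 3.58%). Within U251, 2 were at least 2-fold higher (SDC4 and SPP1; background 1.17%) and 1 at least 2-fold lower (FBN1; background 1.71%). The median log2 ratio of all 48 was 0.02 in U87MG and -0.04 in U251, against -0.05 and -0.004 over all genes tested. In both lines 19 of the 41 were under 0.5 in size. How many of all genes tested stayed under that size was not counted, so whether matrix genes moved less or more than others is not shown.

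**Figure D3:**
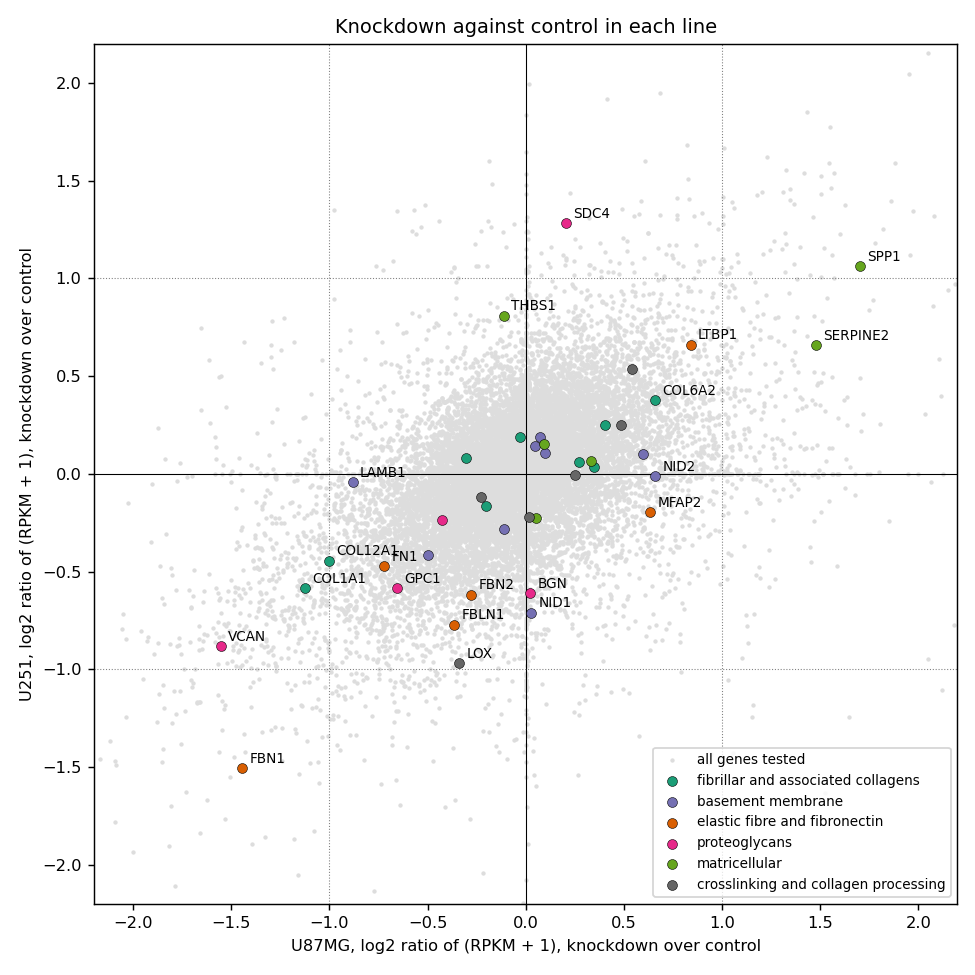
log2 ratio of (RPKM + 1), knockdown over control, in U87MG (horizontal) and U251 (vertical), with the 41 matrix genes coloured by class over all genes tested in grey, names where either ratio reaches 0.6 in size, and dotted lines at 2-fold. FBN1 lies near the diagonal at -1.45 and -1.51, SPP1 is farthest right at 1.70, SDC4 and THBS1 sit high near the vertical axis, and 47 other genes lie outside the limits of 2.2.

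FBN1 had the most even response of the 4. Control and knockdown levels were 8.20 and 2.38 RPKM in U87MG and 10.4 and 3.03 in U251, so the knockdown levels were 0.290 times (counting interval 0.267 to 0.315) and 0.290 times (0.270 to 0.312) their controls. Both knockdown libraries lay below both controls, and the limma estimate was -1.48 ± 0.16 (adjusted p 0.010). The call held in 7 of 9 settings, and was lost without the filter on low values (0.42) and without the block for cell line (1). FBN2, the fetal fibrillin, had ratios of 0.717 (0.620 to 0.828) and 0.373 (0.304 to 0.456) at low levels and was not called.
VCAN was at 16.5 RPKM in the U87MG control and 4.96 in the knockdown, a ratio of 0.30 (0.284 to 0.318), and at 28.7 and 15.1 in U251, a ratio of 0.527 (0.509 to 0.545). Both knockdown libraries again lay below both controls, and the estimate was -1.22 ± 0.20 (adjusted p 0.025). It was called in 5 of 9 settings, with adjusted p of 0.060 after trimmed-mean rescaling, 0.056 with a pseudocount of 5, 0.42 without the filter and 1 without the block.
SPP1 was at 61.3 RPKM in the U87MG control and 202 in the knockdown, 3.30 times its control (3.16 to 3.44), and at 15 and 32.5 in U251, 2.16 times (1.98 to 2.37). Because the lines differ so much, the U251 knockdown stayed below the U87MG control, and the estimate of 1.38 ± 0.20 (adjusted p 0.019) is within lines. SPP1 became the most abundant of the 48 genes in the U87MG knockdown, from 7.86% to 19.7% of their summed level, whereas in U251 it went from 0.559% to 1.03%. SERPINE2 was at 27.9 and 79.5 RPKM in U87MG (2.85 times, 2.71 to 3.0) and at 21.7 and 34.9 in U251 (1.60 times, 1.5 to 1.71), with both knockdown libraries above both controls (1.07 ± 0.22, adjusted p 0.044). SPP1 was called in 5 of 9 settings and SERPINE2 in 4, and after trimmed-mean rescaling their adjusted p were 0.054 and 0.082. They were 0.056 and 0.089 with a pseudocount of 5, 0.42 for both without the filter and 1 for both without the block, and 0.072 for SERPINE2 without the trend.

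None of the 9 collagens that passed was called in the knockdown by limma, beside 1.16% higher and 2.61% lower of all genes tested. At such shares, no call among 9 genes says little about collagens. Before adjustment, at p under 0.05, 1 was higher and 2 lower, beside 8.29% and 12.8% of all genes. The type I chains had ratios on either side of 1, since COL1A1 had ratios of 0.322 (0.273 to 0.379) in U87MG and 0.604 (0.541 to 0.675) in U251 (estimate -0.86 ± 0.20, adjusted p 0.057), while COL1A2 had ratios of 1.27 (1.12 to 1.43) and 1.05 (1.03 to 1.06). COL12A1 had ratios of 0.462 (0.438 to 0.488) and 0.730 (0.713 to 0.747), with an estimate of -0.72 ± 0.19 and an adjusted p of 0.084. COL6A2 had ratios of 1.59 (1.54 to 1.64) and 1.30 (1.27 to 1.33), with an estimate of 0.52 ± 0.16 and an adjusted p of 0.12. For these 3 genes the lines had the same sign and the ratio was farther from 1 in U87MG. Whether the lines differ cannot be tested with 1 library per line and arm. COL5A1, COL5A2 and COL6A1 had ratios of 0.978 to 1.45 in either line.

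No basement membrane gene of 9 was called in the knockdown by limma (background 1.16% higher and 2.61% lower). Before adjustment 1 (LAMA5) was lower, beside 12.8% of all genes tested. LAMB1 had a ratio of 0.536 (0.519 to 0.554) in U87MG and 0.971 (0.951 to 0.991) in U251, and its estimate was -0.46 ± 0.22 (adjusted p 0.27). LAMA5 had ratios of 0.445 (0.364 to 0.543) and 0.722 (0.680 to 0.766), with an estimate of -0.46 ± 0.17 and an adjusted p of 0.19. LAMA4 had a ratio of 2.50 (1.97 to 3.18) in U87MG on 101 and 249 reads and 1.08 (1.05 to 1.11) in U251. NID1 had a ratio of 0.593 (0.560 to 0.627) in U251, the line that expresses it (estimate -0.34 ± 0.22, adjusted p 0.40), and NID2 one of 1.84 (1.60 to 2.13) in U87MG, the line that expresses it. The collagen IV pair, which shares its promoter, had U251 ratios on either side of 1, at 1.14 (1.11 to 1.18) for COL4A1 and 0.819 (0.799 to 0.840) for COL4A2. LAMB2 and LAMC1 were nearly level, with ratios of 1.04 to 1.11.

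Beside FBN1, 2 genes of the elastic fibre and fibronectin class were lower and 1 higher before adjustment, at p under 0.05 by limma, and did not pass it. Over all genes tested, 12.8% were lower and 8.29% higher at that threshold. FN1 had ratios of 0.565 (0.526 to 0.607) in U87MG and 0.715 (0.693 to 0.737) in U251, with an estimate of -0.60 ± 0.17 and an adjusted p of 0.10. FBLN1 had a ratio of 0.558 (0.506 to 0.615) in U251 and 0.203 (0.0689 to 0.494) in U87MG, the latter on 30 and 6 reads. LTBP1, which binds to fibrillin microfibrils, had ratios above 1, with 9.16 and 17.2 RPKM in U87MG (1.88 times, 1.76 to 2.0) and 7.63 and 12.6 in U251 (1.66 times, 1.54 to 1.78). Both LTBP1 knockdown libraries lay above both controls, and the estimate was 0.75 ± 0.17 with an adjusted p of 0.052. It was called after quantile normalization (0.029) and when 2 libraries had to reach an RPKM of 1 (0.048). MFAP2 had a ratio of 1.63 (1.37 to 1.93) in U87MG, the line that expresses it.

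Of the other proteoglycans, GPC1 had ratios of 0.575 (0.502 to 0.658) and 0.624 (0.556 to 0.700), with an estimate of -0.62 ± 0.16 and an adjusted p of 0.082. SDC4 had a ratio of 1.16 (1.10 to 1.22) in U87MG and 2.51 (2.35 to 2.67) in U251, with 20.5 and 51.3 RPKM, which put the U251 knockdown above both U87MG libraries (0.75 ± 0.25, adjusted p 0.15). SDC1 had ratios of 0.731 (0.677 to 0.790) and 0.837 (0.762 to 0.919), and BGN had 0.453 (0.319 to 0.636) in U251.

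THBS1 had a ratio of 1.75 (1.73 to 1.78) in U251, with 432 and 758 RPKM, the largest difference in level within a line among the 48 genes, and one of 0.733 (0.397 to 1.33) in U87MG on 29 and 21 reads. Its estimate was 0.35 ± 0.23 with an adjusted p of 0.43. THBS1 made up 16.1% and 24% of the summed level in the U251 control and knockdown. The matricellular class made up 35.8% and 42.6% there and 29% and 42.6% in U87MG, where SPP1 held most of the difference. SPARC, TNC and THBS2 had ratios of 0.819 to 1.27.

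None of the 6 crosslinking and processing genes was called in the knockdown by limma (background 1.16% higher and 2.61% lower). Before adjustment 2 were higher and 1 lower, beside 8.29% and 12.8% of all genes tested. LOX had ratios of 0.750 (0.668 to 0.841) in U87MG and 0.434 (0.384 to 0.489) in U251, with an estimate of -0.65 ± 0.20 and an adjusted p of 0.12. SERPINH1 had ratios of 1.47 (1.39 to 1.56) and 1.47 (1.38 to 1.57), as even as those of FBN1, with both knockdown libraries above both controls, an estimate of 0.54 ± 0.16 and an adjusted p of 0.11. PLOD2 had ratios of 1.41 (1.37 to 1.45) and 1.19 (1.17 to 1.22), with an estimate of 0.37 ± 0.16 and an adjusted p of 0.23. LOXL1, LOXL2 and PLOD1 had ratios of 0.849 to 1.20. Across the 41 genes the ratio was above 1 in both lines for 16, below 1 in both for 15 and on opposite sides for 10. The same split was not counted over all genes tested, so these counts are a description.

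Ratios between partner chains or paralogs within a library do not depend on its scaling, and they describe the make-up of the matrix transcripts in each line. Type I collagen is normally assembled from COL1A1 and COL1A2 chains together, and the ratio of COL1A2 to COL1A1 was 0.848, 3.34, 32.5 and 56.2, so it was higher in the knockdown library of each line and far higher in U251. COL6A3 to COL6A2 was 0.305, 0.154, 0.0448 and 0.0368, and COL6A1 to COL6A2 was 0.342, 0.211, 1.79 and 1.57. LAMA4 to LAMC1 was 0.0217, 0.0524, 0.464 and 0.451, and LAMB1 to LAMC1 was 2.75, 1.43, 1.06 and 0.929. In both U87MG libraries LAMB1 thus stood above LAMC1, and LAMA4 far below it. COL4A2 to COL4A1 was 12.4, 4.98, 1.86 and 1.33, with as few as 9 reads behind the U87MG values. SDC4 to SDC1 was 2.18, 3.45, 1.82 and 5.45, and LOXL2 to LOX was 3.13, 5.01, 23.5 and 53.9, both higher in the knockdown library of each line. THBS1 to THBS2 was 0.606, 0.405, 102 and 219. These ratios have no replicate within a line and arm.

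**Figure D4:**
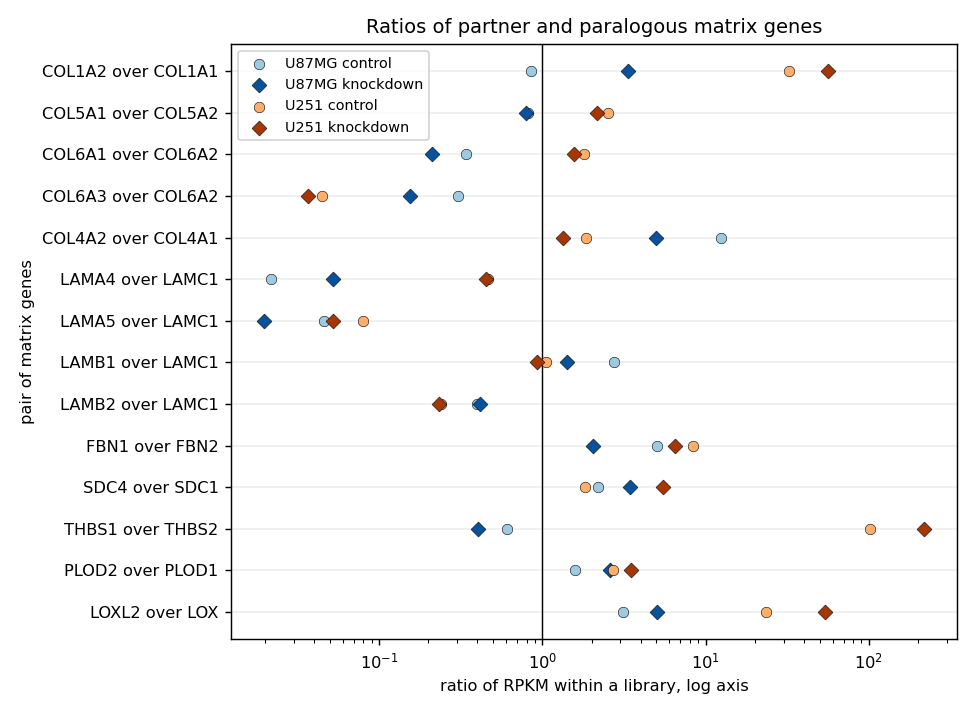
Ratio of the RPKM of paired matrix genes within each library on a log axis, with circles for control, diamonds for knockdown, blue for U87MG and orange for U251, and a line at 1. COL1A2 over COL1A1 spans 0.848 to 56.2 and THBS1 over THBS2 spans 0.405 to 219, while LAMB2 over LAMC1 stays between 0.234 and 0.416.

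A further 135 matrix genes outside the 48 were read in the same fit, in lists of other collagens, basement membrane, elastic fibre, proteoglycan, matricellular and crosslinking genes and of enzymes of collagen and glycosaminoglycan synthesis. Of the 89 that passed, 2 were called higher in the knockdown by limma and 1 lower, beside 1.16% and 2.61% of all genes tested. Before adjustment, 10 were higher and 10 lower, beside 8.29% and 12.8% of all genes. CYR61, an integrin-binding matricellular protein, stood at 32.5, 63.0, 302 and 736 RPKM (knockdown minus control 1.11 ± 0.16, adjusted p 0.021). COL13A1, a transmembrane collagen, stood at 0.497, 1.90, 3.39 and 8.44 RPKM (1.03 ± 0.18, adjusted p 0.027). CHSY1, an enzyme that polymerises the chondroitin sulfate chains carried by proteoglycans such as versican, stood at 11.9, 3.77, 15.3 and 5.46 RPKM (-1.38 ± 0.16, adjusted p 0.012). Both CHSY1 knockdown libraries lay below both controls, as for VCAN. CHSY1 was the only call among 26 glycosaminoglycan synthesis genes that passed. Of 21 collagen synthesis genes that passed, limma called 0 in the knockdown, with 4 higher and 1 lower before adjustment, beside the same 8.29% and 12.8%.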

How the data were processed

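Poly(A) RNA of 4 libraries was read paired-end by the submitters. Bowtie 0.12.2 and hg19 are named for the alignment, per the submitters' processing notes. The deposited table holds RPKM per gene, scaled by the authors. How reads were counted, with which gene models and with what regard to strand or repeated matches, is not given in the sources used here. Reads of overlapping and antisense genes, such as COL5A1-AS1 or VCAN-AS1, cannot be told apart from those of the member. Groups came from the sample titles.

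Values were analysed as log2(RPKM + 1) for genes that any library held at an RPKM of 1 or more. limma 3.58.1 (R 4.3.3) was fitted to all 4 libraries with line and arm as terms, an intensity trend in eBayes, two-sided tests and Benjamini-Hochberg adjustment over 16098 genes. A gene was called at an adjusted p under 0.05. Errors after ± are SE. With 1 library per line and arm, differences within a line and between the control libraries have no test. The residual of each gene is how far its knockdown ratios differ between the lines, which may be technical. A p-value is set against this residual, moderated by the spread shared across genes, and not against replicates. Whether the lines respond differently cannot be tested.

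Low RPKM values are whole multiples of what 1 read is worth, which gave back whole reads for 27928 of 27973 genes (99.8%, within 0.01 reads). Where several whole numbers would do, the smallest was taken, so a gene may have a multiple of them. Exact Clopper-Pearson 95% intervals of ratios come from them and cover counting error only.

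The members and lists were chosen with earlier results of these data known. All members were accounted for. Levels are given for each member that passed, and limma values for called members and the 3 of each class with the largest mean absolute knockdown ratio. From the other lists at most 3 called genes each are named per comparison (lines or arms). Promoter sequences are from RefSeq (GRCh38.p14) and were linked by symbol. The settings changed were the pseudocount, the filter, the scaling, the second term and the trend. Python 3.11.15, pandas 2.3.3, scipy 1.17.1 and matplotlib 3.10.9 were used.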

Additional observations from a re-analysis of the deposited data

Results flagged for a closer look

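COL6A3, the third chain of type VI collagen, had knockdown levels of 0.803 times the control in U87MG (95% counting interval 0.774 to 0.833) and 1.07 times in U251 (1.001 to 1.14). The ratios thus lay on opposite sides of 1 in the 2 lines, a difference of -0.385 on the log2(RPKM + 1) scale, U87MG minus U251. With 1 library per line and arm this difference was not tested, and the lower bound in U251 barely clears 1. It was the only member above an RPKM of 1 in both lines whose counting intervals lay on opposite sides of 1.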

How the results depend on the processing

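The count of members called between the lines was 24 to 32 in the 8 other settings against 31, and that past 2-fold between the control libraries 21 to 26 against 24. The 4 members called between the arms became 1 (FBN1) with a pseudocount of 5 and 1 (FBN1) after trimmed-mean rescaling. limma called 0 without the filter on low values, with 5 higher and 7 lower before adjustment (p under 0.05), and 0 without the block for cell line, with 0 higher and 1 lower. The count past 2-fold in the U87MG knockdown went from 6 to 3 with a pseudocount of 5, and that in the U251 knockdown from 3 to 7 with a pseudocount of 0.1 and to 1 with a pseudocount of 5. MFAP2, 0.22 between the arms, reversed to -0.30 with a pseudocount of 0.1, and was called in neither. The cause of these changes was not tested. Leaving out a library would leave no residual degrees of freedom, so no such fit was made, and no paired analysis was possible beyond the cell line as a block because each line and arm has 1 library. Depth limits BGN, NID1, NID2, MFAP2, FBLN1, COL4A1 and THBS1 in the line where they are low, at 0 to 30 reads.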

Other observations

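The matrix genes outside the 48 also differed between the lines, with 24 of the 89 that passed called higher in U87MG by limma and 42 lower, beside 21.6% and 27% of all genes tested. Of these 89, 25 passed in 1 line only, so passing already asked for a difference, and among the 64 that passed in both lines 16 were called higher and 27 lower. No background was computed for genes that passed in both lines. Several were near 0 in 1 of the lines. GPC4, a glypican, stood at 0.0159, 0.00805, 26.1 and 29.1 RPKM in the order U87MG control, U87MG knockdown, U251 control and U251 knockdown (U87MG minus U251, -4.82 ± 0.17), and SULF2, a heparan sulfate 6-O-endosulfatase, at 0.0538, 0.0363, 21.2 and 20.3 RPKM (-4.38 ± 0.17). PXDN, the peroxidase that crosslinks collagen IV, stood at 0.0390, 0.0282, 38.1 and 14.7 RPKM (-4.58 ± 0.29), low in the line in which COL4A1 and COL4A2 were low.

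In the other direction, TGM2, a transglutaminase that crosslinks fibronectin, stood at 31.1, 33.2, 0.189 and 0.134 RPKM (4.84 ± 0.17), and CSPG4 (NG2) at 6.82, 6.13, 0.0625 and 0.00863 RPKM (2.85 ± 0.19). LAMB3 stood at 23.5, 11.5, 3.0 and 2.73 RPKM (2.18 ± 0.22), and LAMA1 at 2.41, 2.04, 0.0413 and 0.0259 RPKM (1.64 ± 0.22), both higher in each U87MG library than in either U251 library. COL7A1, the anchoring fibril collagen, stood at 19.7, 19.7, 2.55 and 3.36 RPKM (2.40 ± 0.17), and COL16A1 at 9.77, 7.73, 0.428 and 0.589 RPKM (2.69 ± 0.19). Of the other collagens that passed, these 2 were called higher in U87MG and 6 lower. The largest estimate in size among them was that of COL18A1, at 0.0192, 0.00649, 7.77 and 10.1 RPKM (-3.29 ± 0.19). CTGF, a matricellular protein related to CYR61, stood at 7.19, 10.5, 183 and 281 RPKM (-4.55 ± 0.16), and TGFBI at 31.6, 29.5, 361 and 247 RPKM (-3.25 ± 0.17). Lower in U87MG too were EFEMP1, at 0.983, 3.29, 58.3 and 45 RPKM (-4.16 ± 0.31), and SDC2, at 1.87, 2.14, 22.6 and 22.3 RPKM (-2.97 ± 0.16). Of the other elastic fibre genes 2 were called higher and 5 lower, and of the other proteoglycans 2 and 3. SMOC1 was higher in U87MG, at 9.21, 12.2, 0.0213 and 0 RPKM (3.52 ± 0.19). Adjusted p for the genes named here ranged up to 0.00069.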
